A study of Mus musculus with 2 samples.

Results

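Cycling cells of limb tendon were examined in 2 single-cell RNA libraries from mice at P7, 1 labelled wild-type and 1 labelled mutant. A cell was counted as cycling when it held at least 4 unique molecular identifiers (UMIs, 1 per captured mRNA molecule) summed over Mki67, Top2a, Cdk1 and Birc5, and under 10% of its UMIs came from the haemoglobin genes Hba-a1, Hba-a2, Hbb-bs and Hbb-bt. By this rule 261 of 4956 cells were cycling, 132 of 2364 wild-type cells and 129 of 2592 mutant cells. Cells with 0 UMIs over the 4 genes, 1963 in wild-type mice and 2170 in mutants, are called non-cycling. A further 179 and 210 cells with 1 to 3 UMIs belong to neither set. Each cycling cell was put in 1 of 3 lineages by its other RNA. Scx-high cells held at least 30 Scx UMIs per 10000, immune cells held at least 5 UMIs over Tyrobp, Fcer1g, Laptm5 and Ptprc, and the remainder are called other cells.

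The mutant mice were Tgfbr2 f/-;ScxCre, in which a floxed allele of the TGF-beta type II receptor gene is cut by Cre in cells that have expressed Scleraxis, beside an allele that is null in every cell. The control pups were of the same age. Both genotypes also carried the tendon reporter ScxGFP and the Cre reporter Ai14 RosaT. The control is named wild-type by its title and genotype labels and Het by another label of the same sample, so it may carry 1 altered allele. Each library was 1 pool of fore- and hindlimb tendons from 2 pups, released by enzymatic digestion, and no sort is described for these libraries. There was therefore 1 library per genotype, no spread between replicates could be measured, no test was run, and library batch and genotype cannot be told apart. All intervals below are exact 95% intervals that cover counting error only.

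A dividing cell copies its DNA in S phase and then builds the mitotic spindle in G2 and M phase, and the genes for each step are transcribed in waves. Mki67 encodes a coat protein of mitotic chromosomes, Top2a the topoisomerase that untangles replicated DNA, Cdk1 the kinase that drives entry into mitosis, and Birc5 a subunit of the complex that corrects kinetochore attachments. In a growing limb some tenocytes still divide while the tissue lays down collagen, and cells of vessels, of the sheath around the tendon and of the immune system divide beside them.

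Cycling cells were deeper than the rest. The wild-type library held 9451606 UMIs with a median of 3866.5 per cell, and the mutant library 8250248 UMIs with a median of 2828. Cycling cells had a median of 5234 UMIs and 1920.5 genes in the wild-type and 4805 UMIs and 2000 genes in the mutant library, against 3706 and 2744.5 UMIs in non-cycling cells. A rule that needs 4 UMIs finds more cells among deep cells, so shares are given again with cells thinned to 1500 or 3000 UMIs. Cells below the depth were left out. Of 2274 wild-type and 2509 mutant cells under the haemoglobin limit, 2086 and 2189 remained at 1500 UMIs. At 3000 UMIs 1502 and 1129 remained, so those shares describe the deeper cells. The 2 libraries shared 2 cell barcodes, neither of them cycling. Scrublet, a doublet caller, marked 10 wild-type and 5 mutant cells, under 0.5% of each library and so not a working call, and these cells stayed in. It marked 1 cycling cell in each library.

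The targeted gene was near the detection limit in cycling cells. Cycling Scx-high cells held 13 Tgfbr2 UMIs in 13 of 59 wild-type cells (37.4 CPM, UMIs per 1000000 summed UMIs) and 5 UMIs in 3 of 29 mutant cells (24.7 CPM). The ratio of mutant to wild-type was 0.661, with an interval of 0.184 to 1.98, so a difference was not detectable at this depth. Non-cycling Scx-high cells held 125 wild-type UMIs (30.1 CPM) and 42 mutant UMIs (52.5 CPM), a ratio of 1.74. Tags from the 3′ end of a transcript do not show whether the floxed exon is present, so these counts check neither the label nor the deletion.

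The rule genes were far past the threshold in most members. The median cycling cell held 11 UMIs over the 4 genes in both libraries, the highest 33 in wild-type and 44 in mutant cells, and 87 and 88 cells held 8 or more. All 4 genes were detected in 55 wild-type and 48 mutant cycling cells, and a single gene in 6 and 6. Just inside the threshold 16 wild-type and 15 mutant cells had exactly 4 UMIs, and just outside it 24 and 23 cells had 3. The median of summed G2/M gene UMIs per 10000 was 72.3 and 110 in the cells just inside and 58.4 and 56.0 in those just outside, so the edge of the class is a range and not a gap. These values were used by the rule or move with it and are given as a description.

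Plk1, a mitotic kinase, and Cenpf, a kinetochore protein, were not part of the rule. Plk1 was detected in 42.4% of wild-type and 40.3% of mutant cycling cells, and Cenpf in 69.7% and 55.8%. Among non-cycling cells Plk1 was found in 2 of 1963 wild-type and 0 of 2170 mutant cells, and Cenpf in 5 and 6 cells. In cells with over 50% haemoglobin UMIs, which should lack all 6 markers and had median depths of 5682 and 4451 UMIs, each marker was found in at most 1 of 88 wild-type and 1 of 79 mutant cells. The cycling cells as a whole thus carried both markers far more often than non-cycling cells did. At the threshold itself they did not separate the sets, since a Plk1 or Cenpf UMI was in 8 of 16 wild-type cells just inside and 10 of 24 just outside, and in 1 of 15 and 7 of 23 mutant cells. The label is thus matched by these markers for the class and not for its edge.

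Cycling cells came from every lineage, in proportions that differed between the libraries. In the wild-type library 59 of 132 were Scx-high (44.7%), 56 were other (42.4%) and 17 were immune (12.9%). In the mutant library 29 of 129 were Scx-high (22.5%), 93 were other (72.1%) and 7 were immune (5.43%). Scx-high cells made up 51.2% of wild-type but 9.37% of mutant cells under the haemoglobin limit, so the pools from which the cycling cells were drawn differed as well. The 12 wild-type cells that met both lineage limits held 0 cycling cells (interval 0 to 26.5%).

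Among Scx-high cells the cycling share was 5.06% in the wild-type library (59 of 1165, 3.88 to 6.48) and 12.3% in the mutant library (29 of 235, 8.42 to 17.2), and these intervals did not overlap. Thinned to 3000 UMIs the shares were 4.63% (3.30 to 6.30) and 11.9% (7.35 to 18.0). Thinned to 1500 UMIs they were 1.85% (1.14 to 2.85) and 3.70% (1.61 to 7.17), which overlapped. With 2 UMIs in place of 4 as the threshold at 1500 UMIs they were 5.00% (3.78 to 6.48) and 10.6% (6.87 to 15.5). The mutant share was the higher at each of these settings, and its interval was apart from the wild-type one at all but the threshold of 4 UMIs at a depth of 1500. The Scx-high cells of the libraries need not be the same population. The paper reports that most mutant tendon cells had lost ScxGFP at P7, and proposes that those with it were newly recruited. By EdU, a label of new DNA, it found tenocyte proliferation unaltered. Whether the share differed among cells of tenocyte origin was not tested.

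Among other cells the wild-type share was the higher, with overlapping intervals at every setting given here. Their cycling share was 6.09% (56 of 920, 4.63 to 7.83) in wild-type mice and 4.45% (93 of 2089, 3.61 to 5.43) in mutants, and 6.87% (5.00 to 9.18) and 6.44% (4.96 to 8.20) after thinning to 3000 UMIs. At 1500 UMIs it was 3.96% (2.76 to 5.49) and 2.31% (1.67 to 3.09), and with 2 UMIs as the threshold there 6.29% (4.76 to 8.12) and 4.56% (3.66 to 5.60). Whether the order of the libraries differed between Scx-high and other cells was not tested. The immune shares of 9.60% (17 of 177, 5.70 to 14.9) and 3.78% (7 of 185, 1.53 to 7.64) had intervals that overlapped. The wild-type share was also the higher at 3000 UMIs (18.8% and 8.70%), in cells of 3000 to 10000 UMIs (21.9% and 8.70%) and at 1500 UMIs with a threshold of 2 (10.1% and 6.48%), and the lower at 1500 UMIs with a threshold of 4 (2.17% and 3.70%), where 3 and 4 cells were cycling. The intervals overlapped at each of these settings. Over all lineages the share was 5.80% (4.88 to 6.85) and 5.14% (4.31 to 6.08), a difference inside the counting error, and the order of the libraries differed between settings. The wild-type share was the higher at 1500 UMIs, at 2.73% and 2.51%, and at 5.85% and 5.25% with a threshold of 2. Thinned to 3000 UMIs it was 6.13% (4.97 to 7.46) and 7.26% (5.82 to 8.94), and in cells of 3000 to 10000 UMIs 7.51% and 8.62%.

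**Figure D1:**
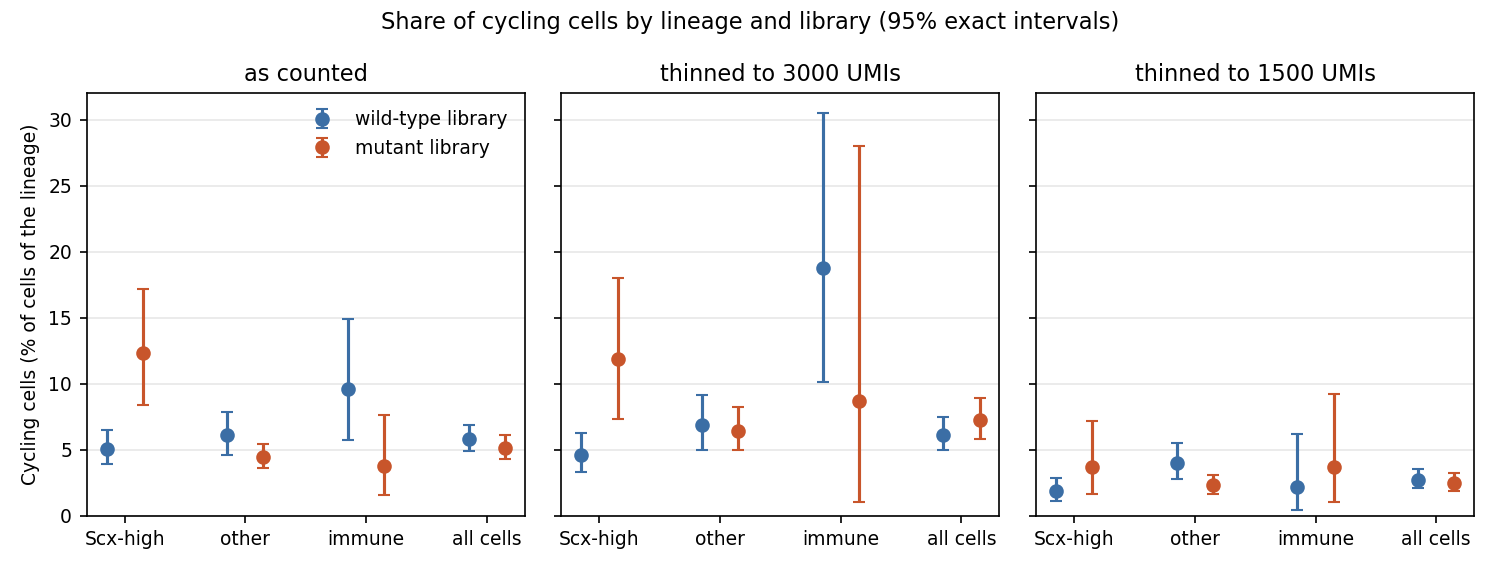
Share of cells that were cycling (percent of cells of the lineage, vertical axis) by lineage, wild-type in blue and mutant in orange, as counted and after thinning to 3000 or 1500 UMIs per cell; points are shares and bars 95% exact intervals for counting error. The mutant Scx-high point lies at 12.3% against 5.06% as counted and at 3.70% against 1.85% at 1500 UMIs, while the other cells lie at 4.45% against 6.09% as counted and at 2.31% against 3.96% at 1500 UMIs.

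Marker lists were used to see which cells the lineages held. Cycling Scx-high cells showed all 7 tenocyte markers (Scx, Tnmd, Fmod, Mkx, Kera, Thbs4 and Col11a2), but Scx set the lineage and gave 5141 of 9714 wild-type and 5134 of 7086 mutant UMIs of the list. The 6 other markers, with Tnmd the most abundant, summed to 13146 CPM in wild-type and 9643 CPM in mutant cycling Scx-high cells, against 17755 and 10941 CPM in non-cycling ones. At least 3 of these 6 were found in 56 of 59 wild-type and 22 of 29 mutant cycling Scx-high cells. The 4 immune genes gave 3 UMIs in all wild-type and 0 in all mutant cycling Scx-high cells. Endothelial markers summed to 126 CPM in wild-type cycling Scx-high cells (44 UMIs, 7 of 8 genes, Egfl7 the highest) against 8.68 CPM in non-cycling ones, and pericyte or smooth muscle markers to 957 against 364 CPM (8 of 8 genes, Acta2 the highest). At least 3 markers of the endothelial list were found in 1 such cell, and of the pericyte list in 3. In all, 10 cycling and 82 non-cycling wild-type Scx-high cells held at least 3 markers of another cell type. The fibroblast or peritenon list was not counted for this. At least 3 of its markers were in 28 of the 59 cycling cells (47.5%) and in 29.5% of the non-cycling ones. Without the 10 and 82 cells, 99 of the 104 genes named past 2-fold between the 2 sets had a value, and 98 kept their direction. The part of these cells in the size of the ratios was not tested, and ratios that rest on them are also given without them.

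Within the other cells, those with pericyte or smooth muscle markers had a cycling share above that of all other cells as counted, which at equal depth stood apart by its interval in the mutant library alone. Cells with at least 3 of these 8 markers were cycling in 17 of 139 cases in the wild-type (12.2%, 7.29 to 18.9) and 13 of 89 in the mutant library (14.6%, 8.01 to 23.7). A need for 3 markers and for 4 rule UMIs both favour deep cells. Thinned to 1500 UMIs the shares were 5.61% (6 of 107, 2.09 to 11.8) and 10.6% (7 of 66, 4.37 to 20.6), against 3.96% and 2.31% of all other cells at that depth, and the wild-type interval covers 3.96%. As counted they made up 30.4% of wild-type and 14.0% of mutant cycling other cells, but 13.9% and 3.54% of the non-cycling ones. Cells with at least 3 endothelial markers were cycling in 2 of 21 (9.52%, 1.17 to 30.4) and 7 of 29 cases (24.1%, 10.3 to 43.5), too few to order the libraries. The mutant interval lay above the 4.45% of all other cells as counted. At 1500 UMIs it was 1.07 to 28.0% (2 of 23), which covers 2.31%. Of the other cells on none of the lists, 3 of 18 (16.7%, 3.58 to 41.4) and 12 of 69 (17.4%, 9.32 to 28.4) were cycling as counted. Cells with at least 3 fibroblast or peritenon markers, the most numerous, were cycling in 40 of 761 cases (5.26%) and 68 of 1840 cases (3.70%), and a cell can stand on more than 1 list.

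Tnmd, a transmembrane protein of tenocytes, was used to divide the other cells, and the intervals of their cycling shares overlapped in each library. With at least 2 Tnmd UMIs 7.66% of wild-type and 4.82% of mutant other cells were cycling, against 5.51% and 4.29% of those with fewer. Cycling immune cells of the wild-type library held all 10 macrophage markers, with Lyz2 the most abundant, and all 17 had at least 3 of them. Of the 7 mutant cycling immune cells 5 had at least 3 macrophage markers, and 2 had at least 3 dendritic cell markers.

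Cycling cells of each lineage held more G2/M than S phase RNA. Over 48 S phase and 58 G2/M genes, cycling Scx-high cells held 3286 and 12974 CPM in wild-type mice and 3206 and 12667 CPM in mutants. Non-cycling Scx-high cells held 503 and 518 CPM in wild-type mice and 811 and 766 CPM in mutants. The ratio of G2/M to S phase UMIs in cycling Scx-high cells was 3.95 in both libraries. In cycling other cells it was 3.66 and 3.17, and in the few immune cells 3.54 and 2.08. The rule leans on genes that peak in G2 and M phase, so the ratio describes the cells it picks and not the length of the phases.

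Single cells ranged widely between the phases. S phase UMIs exceeded G2/M UMIs in 20 of 132 wild-type (15.2%) and 17 of 129 mutant cycling cells (13.2%). The share of S phase among the UMIs of both lists ran from 1.34 to 90.0% in the wild-type library, with a median of 18.6%, and from 0 to 81.1% in the mutant library, with a median of 20.4%. Of the non-cycling cells, 43 wild-type (2.19%) and 54 mutant (2.49%) held at least 10 S phase UMIs, as did 84 and 91 cycling cells. The cells counted as non-cycling thus included some with S phase RNA at the level of many members.

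**Figure D2:**
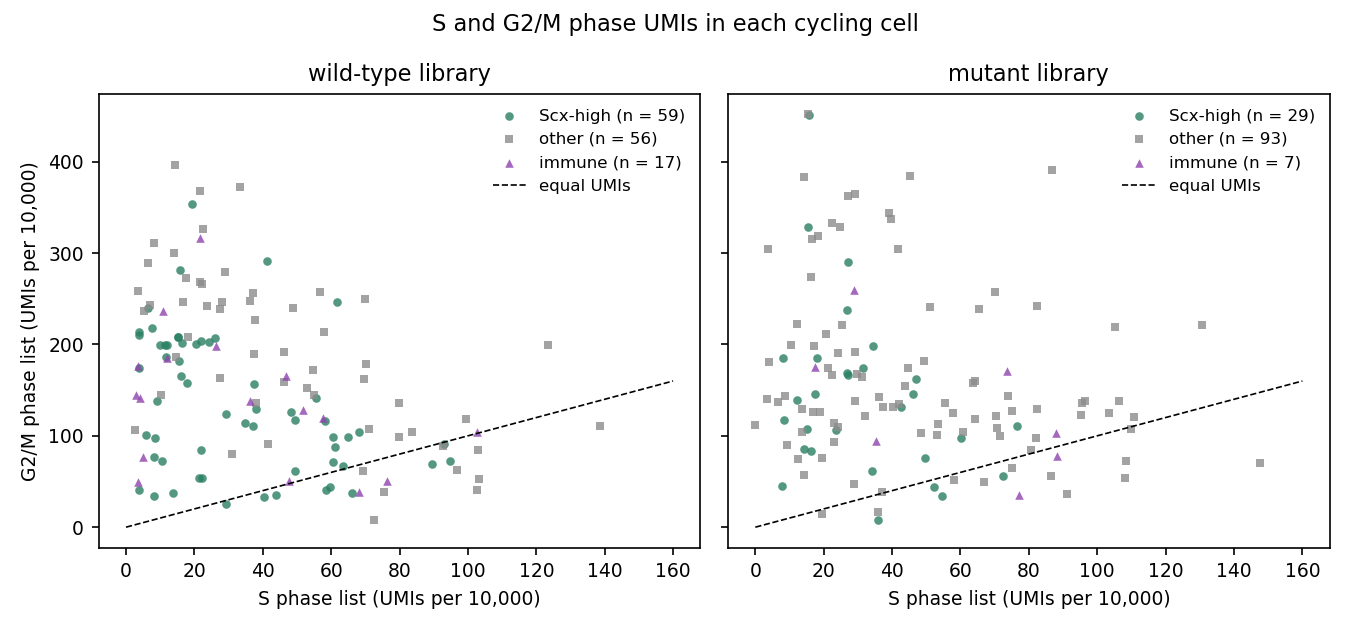
UMIs per 10000 over the S phase list (horizontal axis) and the G2/M list (vertical axis) in each cycling cell, 1 point per cell, with the lineage given by colour and shape and the dashed line marking equal UMIs. Most cells lie above the line in both libraries, and 20 wild-type and 17 mutant cells lie below it.

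Promoters of these genes are shown for the phase genes that were named most often above or that stand for each wave, because the members were picked by genes transcribed together. RefSeq promoters on build GRCm38.p6, from 250 bases before to 50 bases after the start, were found for 47 of 58 G2/M genes (53 promoters) and 35 of 48 S phase genes (41 promoters). They were searched on both strands for CCAAT (the letters bound by NF-Y), TTTGAA (the core of the cell cycle homology region element of G2/M genes) and GGCGGGA (a form of the E2F site). Capitals below mark these 3 motifs, on either strand. Plk1 lies at chr7:122159185-122159484 on the plus strand, Cenpf at chr1:189688037-189688336 on the minus strand, Ccnb2, a mitotic cyclin, at chr9:70421505-70421804 on the minus strand, and Mcm5, a subunit of the replicative helicase, at chr8:75109259-75109558 on the plus strand.
Plk1: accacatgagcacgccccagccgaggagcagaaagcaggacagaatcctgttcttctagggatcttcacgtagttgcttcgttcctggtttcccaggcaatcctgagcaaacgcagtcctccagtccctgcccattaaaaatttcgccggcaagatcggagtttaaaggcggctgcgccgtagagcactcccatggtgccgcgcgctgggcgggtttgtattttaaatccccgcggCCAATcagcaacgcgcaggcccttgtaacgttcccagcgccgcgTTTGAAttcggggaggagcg
Cenpf: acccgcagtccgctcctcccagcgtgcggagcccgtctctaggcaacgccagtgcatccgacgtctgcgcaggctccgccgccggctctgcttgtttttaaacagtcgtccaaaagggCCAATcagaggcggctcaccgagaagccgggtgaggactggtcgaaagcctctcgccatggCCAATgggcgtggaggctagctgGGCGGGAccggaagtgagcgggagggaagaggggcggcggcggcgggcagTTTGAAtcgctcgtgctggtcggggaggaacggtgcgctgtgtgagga
Ccnb2: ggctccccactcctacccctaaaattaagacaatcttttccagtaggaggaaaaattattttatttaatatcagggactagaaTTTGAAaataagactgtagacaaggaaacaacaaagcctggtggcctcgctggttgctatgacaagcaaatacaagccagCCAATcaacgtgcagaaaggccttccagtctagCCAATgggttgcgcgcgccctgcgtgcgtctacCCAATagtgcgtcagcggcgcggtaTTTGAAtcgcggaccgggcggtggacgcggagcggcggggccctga
Mcm5: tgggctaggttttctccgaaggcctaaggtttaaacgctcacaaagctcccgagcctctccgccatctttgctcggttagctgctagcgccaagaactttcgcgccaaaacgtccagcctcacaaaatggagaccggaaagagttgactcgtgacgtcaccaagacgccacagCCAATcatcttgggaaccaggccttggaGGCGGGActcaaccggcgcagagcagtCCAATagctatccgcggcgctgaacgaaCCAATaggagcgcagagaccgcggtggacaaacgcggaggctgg

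TTTGAA was present in 67.9% of G2/M promoters, 14.6% of S phase promoters and 17.9% of all 32851 promoters of the same length. CCAAT was present in 77.4%, 61.0% and 37.4%, and GGCGGGA in 32.1%, 36.6% and 11.3%. The Plk1 window held 1 CCAAT and 1 TTTGAA, Cenpf 2 CCAAT, 1 TTTGAA and 1 GGCGGGA, and Ccnb2 3 CCAAT and 2 TTTGAA, while Mcm5 held 3 CCAAT and 1 GGCGGGA and no TTTGAA. These matches describe the letters of the windows and are neither sites nor causes.

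Cycling and non-cycling cells of the same lineage and library were compared gene by gene as a ratio of CPM. Genes were taken when their mean reached 0.5 UMI a cell in either set. Since cycling cells are deeper, more genes pass through the cycling set, which raises the share of genes above 1. In Scx-high cells 14.1% of 1699 wild-type genes and 10.9% of 2197 mutant genes were at least 2-fold higher in cycling cells, and 1.41% and 2.59% at least 2-fold lower. In other cells 14.1% of 1968 wild-type and 12.5% of 1691 mutant genes were at least 2-fold higher and 3.10% and 3.73% lower. In wild-type immune cells the shares of 1360 genes were 16.5% and 3.82%, and the 7 mutant cycling immune cells were too few to compare. The number of genes at least 2-fold lower rose in several of these sets under another scaling or depth, with counts given in the last section. The median log2 ratio of all genes was 0.18 and 0.15 in wild-type and mutant Scx-high cells, 0.10 and 0.15 in other cells and 0.22 in immune cells, and medians of lists below are read beside these values.

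Mitotic genes were close to absent in the non-cycling cells, as the rule implies. Cells with 1 to 3 UMIs are in neither set, and Cenpf was found in 8.94% of wild-type and 8.10% of mutant ones. Plk1 gave 30 UMIs in 59 wild-type cycling and 0 in 1024 non-cycling Scx-high cells (at least 119-fold higher, against a floor of 3 UMIs over the group) and 30 and 0 in the mutant library (at least 39.5-fold). Cenpf gave 124 and 3 UMIs in wild-type Scx-high cells, a ratio of 493 (165 to 2422). Ccna2, the cyclin of S and G2 phase, gave 92 and 3 UMIs in the wild-type, a ratio of 366 (121 to 1805), and 60 and 0 in the mutant library (at least 79.0-fold). Ccnb1, the main mitotic cyclin, gave 70 and 2 UMIs, a ratio of 417 (111 to 3513), and 67 and 0 (at least 88.2-fold). Genes with a level outside division differed less. Hmgb2, a chromatin protein, stood at 1187 against 46.5 CPM in wild-type Scx-high cells, a ratio of 25.5 (21.5 to 30.4), and at 1047 against 68.8 CPM in mutant ones, a ratio of 15.2 (11.3 to 20.9).

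Mxd3, a MAX-binding repressor outside the phase lists, was almost confined to cycling cells in the comparisons run, with 59 UMIs in cycling and 5 in non-cycling wild-type Scx-high cells, a ratio of 141 (57.0 to 449), and 36 and 2 UMIs in mutant ones, a ratio of 71.1 (18.3 to 609). Lockd, a long non-coding RNA near Cdkn1b, stood at 494 against 6.99 CPM in wild-type Scx-high cells, a ratio of 70.7 (47.5 to 109). Knstrn, a spindle and kinetochore protein, gave 65 and 0 UMIs there (at least 258-fold higher). All such ratios follow from how the cells were chosen and are descriptions.

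Chromatin and nuclear growth genes were higher in cycling cells of every lineage compared. Of the list members that passed the filter, 17 of 19 in wild-type and 13 of 19 in mutant Scx-high cells were at least 2-fold higher, 16 of 19 in other cells of each library and 15 of 18 in wild-type immune cells. The summed list of 20 genes, which no filter touches, stood at 17099 against 4133 CPM in wild-type and 17103 against 6228 CPM in mutant Scx-high cells. In other cells it stood at 23499 against 6364 and 21374 against 6482 CPM, and in wild-type immune cells at 17946 against 5936 CPM. The level in cycling Scx-high cells was thus close to equal in the libraries, though no interval was taken, and the non-cycling mutant Scx-high cells stood above the wild-type ones.

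Stmn1, which binds free tubulin, stood at 658 against 8.20 CPM in wild-type Scx-high cells, a ratio of 80.3 (55.8 to 119), and at 949 against 38.8 CPM in mutant ones, a ratio of 24.5 (16.7 to 37.0). Tuba1b, an alpha-tubulin, stood 9.85-fold (8.93 to 10.9) and 6.13-fold (5.25 to 7.17) higher, and the histone variant H2afz 9.69-fold (8.70 to 10.8) and 6.96-fold (5.68 to 8.55). Npm1, a nucleolar protein, was the exception, with ratios of 1.21, 0.751, 1.09, 0.995 and 0.785 in wild-type Scx-high, mutant Scx-high, wild-type other, mutant other and wild-type immune cells.

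**Figure D3:**
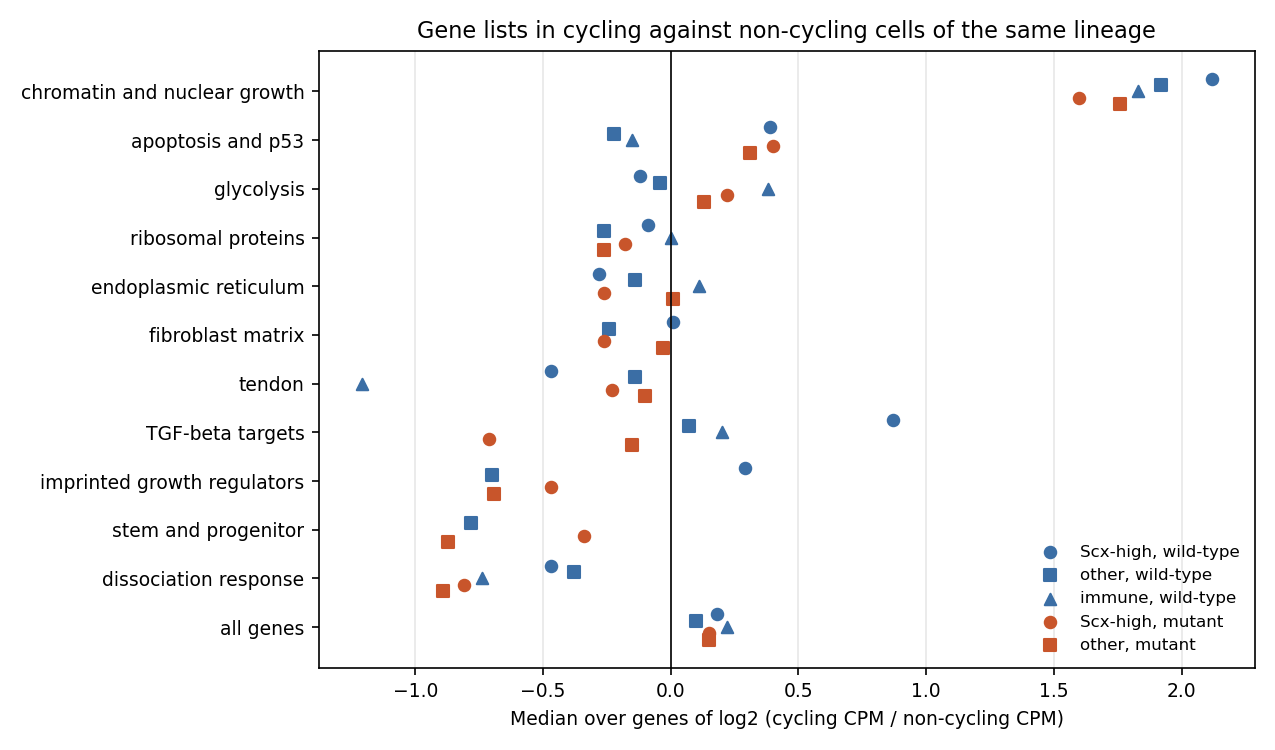
Median over genes that passed the filter of the log2 ratio of cycling to non-cycling CPM (horizontal axis) for 11 gene lists and for all genes, with shape giving the lineage and colour the library; lists with under 3 genes passed in a comparison are not drawn. Chromatin and nuclear growth genes lie between 1.60 and 2.12, while dissociation response genes lie between -0.89 and -0.38.

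The cyclin-dependent kinase inhibitors did not move as 1 group. Cdkn2c and Cdkn2d, inhibitors of the INK4 family, were higher in cycling cells, Cdkn2c at 382 against 13.3 CPM in wild-type Scx-high cells (28.8-fold, 20.9 to 40.2) and 301 against 16.3 CPM in mutant ones (18.5-fold, 10.1 to 36.8), and Cdkn2d 16.3-fold (12.5 to 21.5) and 8.93-fold (5.37 to 15.3). Cdkn1c, an imprinted inhibitor, was lower, at 253 against 347 CPM in wild-type Scx-high cells (ratio 0.729, 0.581 to 0.905), 459 against 1145 CPM in mutant Scx-high cells (0.401, 0.321 to 0.497), 629 against 1089 CPM in wild-type other cells (0.578, 0.497 to 0.669) and 961 against 1783 CPM in mutant other cells (0.539, 0.489 to 0.594). With each cell thinned to 1500 UMIs the shares of cells with a Cdkn1c UMI had intervals that overlapped in 3 of these 4 sets, at 32.8% of cycling and 36.2% of non-cycling wild-type Scx-high cells, 10 of 28 (18.6 to 55.9%) and 68 of 170 (32.6 to 47.8%) mutant Scx-high cells and 33.9% and 48.2% of wild-type other cells. They were apart in mutant other cells, at 48.2% (37.3 to 59.3) and 67.8% (65.5 to 70.0). Cdkn1a, an inhibitor induced by DNA damage, had intervals of 0.913 to 2.02 in wild-type and 0.681 to 2.41 in mutant Scx-high cells, 0.699 to 1.33 in wild-type other and 0.538 to 1.44 in wild-type immune cells, so no difference was detectable there. In mutant other cells it stood at 120 against 87.3 CPM (1.37, 1.01 to 1.82), and at equal depth a Cdkn1a UMI was in 21.2% (13.1 to 31.4) of cycling and 7.58% (6.34 to 8.97) of non-cycling cells, against 0 of 71 mutant cells with over 50% haemoglobin UMIs.

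Ccnd2, a D-type cyclin of G1, was lower in cycling cells of the 4 sets in which it could be compared, with ratios of 0.684 (0.538 to 0.860) and 0.227 (0.0962 to 0.460) in wild-type and mutant Scx-high cells and 0.522 and 0.587 in other cells. Cdk4, its partner kinase, was 1.37-fold (1.08 to 1.72) and 0.982-fold (0.698 to 1.36) in Scx-high cells and 1.62-fold and 1.40-fold in other cells. The antiproliferative gene Btg2 was lower in Scx-high cells of both libraries (0.465, 0.307 to 0.678, and 0.282, 0.119 to 0.575). Gas1, a membrane protein named for growth arrest, was unlike them in that its ratio was 0.971 (0.820 to 1.14) in wild-type but 0.439 (0.286 to 0.650) in mutant Scx-high cells, a difference that was not tested. Of the whole G1 list of 20 genes, 9 passed in wild-type Scx-high cells, 2 of them at least 2-fold higher and 1 lower, and 10 passed in mutant ones, 3 higher and 4 lower.

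Tendon genes took a smaller share of the RNA of cycling Scx-high cells, though with Scx included not fewer UMIs per cell. The list includes Scx, whose limit chose the cells, so its counts, sums and means are partly set by the rule. The 6 tenocyte markers other than Scx summed to 13146 against 17755 CPM in wild-type and 9643 against 10941 CPM in mutant cells. In the wild-type library all 18 list genes passed, 17 had a ratio below 1, Scx among them, and 1 was at least 2-fold lower. The median log2 ratio was -0.47. In the mutant library 15 passed, all 15 had a ratio below 1, Scx again among them, and 1 was at least 2-fold lower, with a median of -0.23. Over all genes tested 662 of 1699 wild-type and 857 of 2197 mutant genes had a ratio below 1. In the same mutant cells 13 of 15 endoplasmic reticulum genes and 73 of 81 ribosomal protein genes were below 1 too, with medians of -0.26 and -0.18, so the mutant tendon values were like those of these lists. The summed tendon level was 168328 against 229056 CPM in the wild-type (0.735) and 80832 against 95618 CPM in the mutant library (0.845), where the endoplasmic reticulum sum had a ratio of 0.803 and the ribosomal sum 0.879. Counted per cell with Scx included, the mean was 992 UMIs in cycling and 928 in non-cycling wild-type cells, and 564 and 420 in mutant ones, since the cycling cells held more UMIs in all. A mean per cell without Scx was not taken. Other markers moved beside the tendon genes in both libraries. In wild-type Scx-high cells endothelial markers summed to 126 against 8.68 CPM and pericyte or smooth muscle markers to 957 against 364 CPM, as given above. Fibroblast or peritenon markers summed to 5340 against 9509 CPM in cycling and non-cycling mutant Scx-high cells, with 3 of the 6 that passed at least 2-fold lower, skeletal muscle markers to 143 against 303 CPM, Schwann or neural markers to 138 against 45.0 CPM and pericyte or smooth muscle markers to 652 against 957 CPM. In the mutant library 6 cycling and 15 non-cycling Scx-high cells held at least 3 markers of another cell type. The fibroblast or peritenon list was again not counted. At least 3 of its markers were in 69.0% of cycling and 68.7% of non-cycling mutant Scx-high cells. Without the 6 and 15 cells, 104 of the 106 genes named past 2-fold had a value, and all 104 kept their direction. The part of these markers in the size of the ratios was not tested.

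Col1a1, the alpha-1 chain of type I collagen, stood at 55238 against 75563 CPM in wild-type cells (0.731, 0.720 to 0.742) and 16935 against 21629 CPM in mutant cells (0.783, 0.755 to 0.812). Tnmd stood at 5928 against 7594 CPM (0.781, 0.746 to 0.816) in the wild-type and 5222 against 5433 CPM (0.961, 0.898 to 1.03) in the mutant library. Thbs4, a matrix thrombospondin, did not differ by more than its counting error in either (0.952, 0.856 to 1.06, and 0.929, 0.823 to 1.05). Scx itself stood at 14779 against 26515 CPM (0.557) in the wild-type and 25363 against 28610 CPM (0.887) in the mutant library, which is a description because Scx set the lineage and its counts may include reads of the ScxGFP transgene.

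In each library 1 list gene stood at least 2-fold lower. In wild-type cells it was Angptl7, a secreted angiopoietin-like protein, at 31.6 against 292 CPM (0.108, 0.0539 to 0.194), found in 6 of 59 cycling and 266 of 1024 non-cycling cells. In the mutant library Angptl7 was too rare to pass the filter, with 7 UMIs in 1 of 29 cycling and 23 UMIs in 8 of 182 non-cycling cells, so it could not be compared there. In mutant cells it was Kera, the proteoglycan keratocan, at 232 against 794 CPM (0.292, 0.213 to 0.393), against a wild-type Kera ratio of 0.695 (0.623 to 0.775). Outside the list, the lowest ratios in wild-type cells included Aldoa, a glycolytic aldolase, at 239 against 705 CPM (0.339, 0.269 to 0.421), the C-type natriuretic peptide gene Nppc (0.338), and the matrix genes Chad (0.393), Ogn (0.403) and Ucma (0.403). In mutant cells they included Apoe (0.113), the chemokine Cxcl12 (0.170) and the secreted Wnt modulator Sfrp2 (0.197).

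**Figure D4:**
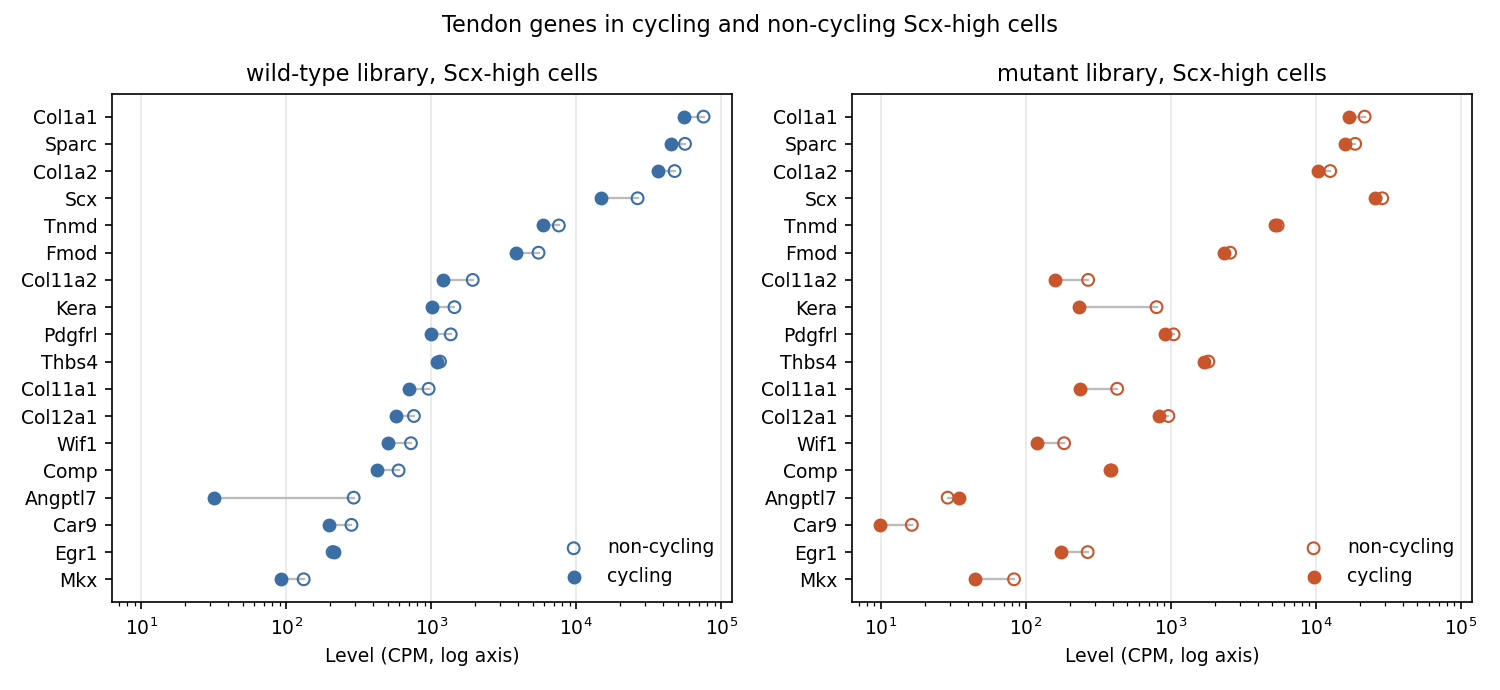
Level in CPM (log axis) of the 18 tendon list genes in Scx-high cells, with filled points for cycling and open points for non-cycling cells and lines joining the same gene, wild-type on the left and mutant on the right. The filled points lie left of the open ones for 17 of 18 wild-type genes, with the widest gap at Angptl7 (31.6 against 292 CPM), and in the mutant library the widest gap is at Kera (232 against 794 CPM). The 17 include Scx, which set the lineage.

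In the other cells, which were largely fibroblast-like by their markers, fibroblast or peritenon markers took a smaller share of the RNA among cycling cells in both libraries. Of the 10 markers 9 passed in each, 0 and 1 of them above a ratio of 1 and 3 and 4 at least 2-fold lower, and all 10 summed to 8964 against 17931 CPM in wild-type and 9595 against 17712 CPM in mutant cells. Over all genes tested 859 of 1968 and 643 of 1691 had a ratio below 1. Of the stem and progenitor list 6 genes passed in the wild-type library, none above a ratio of 1 and 2 at least 2-fold lower (median log2 -0.78), and 5 in the mutant library, 1 above and 1 at least 2-fold lower (median -0.87). Ly6a, the surface antigen Sca-1, stood at 449 against 1132 CPM (0.397, 0.332 to 0.471) and 452 against 907 CPM (0.498, 0.431 to 0.573). Pi16, a marker of adventitial fibroblasts, stood at 210 against 679 CPM (0.309, 0.237 to 0.396) and 164 against 301 CPM (0.545, 0.426 to 0.689), though 40.5% of its mutant cycling UMIs were in 1 cell. At equal depth a Ly6a UMI was in 21.4% (11.6 to 34.4) of cycling and 46.1% (42.4 to 49.7) of non-cycling wild-type cells, and a Pi16 UMI in 14.3% (6.38 to 26.2) and 29.9% (26.6 to 33.3). In mutant cells the intervals of these genes overlapped, with Ly6a at 32.9% (23.1 to 44.0) and 41.6% (39.2 to 44.1) and Pi16 at 9.41% (4.15 to 17.7) and 13.8% (12.2 to 15.6). Those of Cd34 were apart in mutant cells, at 28.2% of cycling and 49.1% of non-cycling cells, as were those of Dpt (27.1% and 47.8%). In wild-type cells they were apart for Cd34 (28.6% and 48.6%) and overlapped for Dpt (21.4% and 37.0%). For Cd44, Thy1, Eng and Nt5e the intervals overlapped in both libraries. The mix of cell types moved with these values. Pericyte or smooth muscle markers summed to 6882 against 5432 CPM in wild-type and 2220 against 990 CPM in mutant other cells, endothelial markers to 298 against 206 and 456 against 151 CPM, and Schwann or neural markers to 36.1 against 75.5 and 346 against 1791 CPM. Skeletal muscle markers summed to 55.7 against 108 and 37.7 against 243 CPM. Dendritic cell markers summed to 3.28 against 1.02 CPM in wild-type and 472 against 48.2 CPM in mutant other cells, where H2-Ab1 was the highest and 1 cell held 97.8% of its cycling UMIs. How far the mix of cell types set these ratios was not tested.

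Imprinted growth regulators took a smaller share of the RNA of cycling other cells, with a similar number of UMIs per cell. Their summed level was 6240 against 9630 CPM in the wild-type and 7953 against 13760 CPM in the mutant library, with 3 of 9 and 0 of 9 passing genes above a ratio of 1. Counted per cell, the mean was 34.0 UMIs in cycling and 35.9 in non-cycling wild-type cells, and 38.6 and 40.6 in mutant ones. The markers of other cell types just given moved with these levels as well, and their part was not tested. The non-coding RNA Meg3 stood at 1894 against 3575 CPM (0.530, 0.486 to 0.576) and 2094 against 4559 CPM (0.459, 0.430 to 0.490), H19 at ratios of 0.527 and 0.615 and the growth factor Igf2 at 0.660 and 0.575. Meg3 was also lower in cycling Scx-high cells, with ratios of 0.504 and 0.637. Igf1, a growth factor that is not imprinted, stood at 164 against 439 CPM (0.373, 0.275 to 0.495) and 248 against 747 CPM (0.332, 0.273 to 0.401) in other cells, but at 158 against 149 CPM in wild-type Scx-high cells (1.06, 0.790 to 1.40).

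Matrix genes of the other cells went both ways. The small proteoglycan Dcn was lower in cycling cells of both libraries (0.509, 0.478 to 0.542, and 0.506, 0.484 to 0.529), as was Lum (0.596 and 0.358). Tnc, the matricellular protein tenascin-C, was higher, at 206 against 92.5 CPM (2.23, 1.67 to 2.95) and 268 against 97.4 CPM (2.75, 2.24 to 3.36), and the elastin gene Eln was 1.30-fold and 1.51-fold. Over the fibroblast matrix list all 20 genes passed in both libraries, 1 at least 2-fold higher in each, and none and 1 at least 2-fold lower, with medians of -0.24 and -0.03. In Scx-high cells the medians were 0.01 (16 passed) and -0.26 (19 passed).

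Genes that respond to tissue dissociation took a smaller share of the RNA of cycling cells in all 5 comparisons. The summed level of the 15 genes was 2561 against 3733 CPM in wild-type and 2080 against 3516 CPM in mutant Scx-high cells, 3490 against 4539 and 3786 against 6661 CPM in other cells, and 3890 against 6625 CPM in wild-type immune cells. Ier2, an immediate early gene, had ratios of 0.528 (0.433 to 0.638) and 0.585 (0.438 to 0.769) in Scx-high cells and 0.678 and 0.488 in other cells. Per wild-type Scx-high cell the mean was 15.1 UMIs in both sets, so the lower level there was one of share and not of molecules per cell. In mutant Scx-high cells it was 14.5 in cycling and 15.4 in non-cycling cells, in mutant other cells 18.4 and 19.6, and in wild-type immune cells 15.2 and 16.4. In wild-type other cells the cycling mean was above the non-cycling one of 16.9.

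Cycling immune cells of the wild-type library gave a smaller share of their RNA to macrophage markers than non-cycling ones, and a summed dendritic cell marker level that came almost wholly from single cells. The 10 macrophage markers summed to 18021 against 27210 CPM, 8 of them below a ratio of 1 and 1 at least 2-fold lower, beside 475 of all 1360 genes below 1. Counted per cell, the mean was 70.6 UMIs in cycling and 67.5 in non-cycling cells. Dendritic cell markers summed to 1937 against 430 CPM, and all 3 that passed were at least 2-fold higher, with Cd74 the most abundant and Cd209a, Flt3 and Itgax at 0 in both sets. Only 1 of the 17 cycling cells had at least 3 of these markers, and a single cell held 97.3% of the cycling Cd74 UMIs and a single cell all those of H2-Aa and H2-Ab1. The part of this mix in the ratios of single genes was not tested. Csf1r, itself on the macrophage list and the receptor for macrophage growth factor, stood at 586 against 1083 CPM (0.541, 0.378 to 0.753), and Fn1, fibronectin, 2.36-fold higher (1.57 to 3.51). Jun was lower (0.392, 0.210 to 0.676), as was the transcription factor Klf4 (0.153) and the chemokine Ccl3 (0.213). Of the mast cell genes, Cma1 gave 0 UMIs in cycling against 510 in non-cycling immune cells, which were all in 2 cells, so the comparison of this gene is one of single cells.

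Lists of general cell function and signalling were compared in the same way. The medians of ribosomal protein genes were -0.09 and -0.18 in wild-type and mutant Scx-high cells and -0.26 in other cells of each library, and none of the 81, 81, 81 and 80 genes that passed was at least 2-fold away. Endoplasmic reticulum genes had medians of -0.28 and -0.26 in Scx-high, -0.14 and 0.01 in other and 0.11 in immune cells. Glycolysis genes had medians of -0.12, 0.22, -0.04 and 0.13 in the same order of Scx-high and other cells, and apoptosis and p53 genes 0.39, 0.40, -0.22 and 0.31. Growth factors and receptors had medians of -0.45 (3 genes), -0.29 (8), -0.03 (6) and -0.51 (5). TGF-beta target genes had medians of 0.87 and -0.71 in wild-type and mutant Scx-high cells and 0.07 and -0.15 in other cells, and the wild-type value includes Acta2 and Tagln, whose UMIs were mostly in 1 cell (63.5% and 91.4%). Without the 10 cycling and 82 non-cycling cells that held at least 3 markers of another cell type as counted above, the wild-type Tagln ratio was 0.644 in place of 7.55.

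Cycling cells of the mutant and wild-type libraries were then compared within a lineage, beside the same ratio in non-cycling cells. In cycling Scx-high cells 13.0% of 2315 genes were at least 2-fold higher in the mutant and 5.87% at least 2-fold lower, and in non-cycling ones 11.8% and 5.05% of 1367. In cycling other cells 3.25% of 2059 genes were higher and 4.76% lower, and in non-cycling ones 3.63% and 6.46% of 1239. The median log2 ratio of all genes was 0.24 in cycling Scx-high cells and -0.03 in cycling other cells. These values compare 2 libraries, and what they share with the batch cannot be told apart from the genotype.

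The cell cycle genes themselves differed little between the libraries in Scx-high cells and were mostly lower in mutant other cells. The cells of both libraries passed the same threshold on genes of this kind, so their levels are partly set by the rule and are given as a description. In Scx-high cells the median log2 ratio was 0.03 over 15 S phase genes, none of them 2-fold away, and -0.07 over 44 G2/M genes, 1 of them at least 2-fold lower. Cenpf stood at 306 against 356 CPM (0.859, 0.623 to 1.17) and Plk1 at 148 against 86.2 CPM (30 UMIs in each library). In other cells the medians were 0.06 over 17 and -0.31 over 44 genes, 38 of these G2/M genes being below a ratio of 1 beside 1101 of all 2059 genes, with summed G2/M levels of 14837 against 18022 CPM (0.823).

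Structural tendon genes were lower in the mutant cycling Scx-high cells. Markers of other cell types differed as well. Skeletal muscle markers summed to 143 in mutant against 8.62 CPM in wild-type cycling Scx-high cells (4 of 6 genes detected in the mutant, Myod1 the highest), Schwann or neural markers to 138 against 14.4 CPM (5 of 6, Mbp the highest), endothelial markers to 39.5 against 126 CPM and fibroblast or peritenon markers, mostly Dcn, to 5340 against 11697 CPM. At least 3 skeletal muscle markers were found in 1 and at least 3 Schwann markers in 2 of the 29 mutant cells. Cells that held at least 3 markers of another cell type, 6 mutant and 10 wild-type, were also left out. The fibroblast or peritenon list was not counted for this. Of the 56 genes named past 2-fold, 52 then had a value, and all 52 kept their direction. The part of these markers in the size of the ratios below was not tested. Over the tendon list 9 of 17 genes were at least 2-fold lower and none higher, with a median of -1.05, and in non-cycling cells 9 of 18, with a median of -0.98. Col1a1 stood at 16935 against 55238 CPM (0.307, 0.296 to 0.318), Col1a2 at a ratio of 0.282 and Sparc, a collagen-binding matrix protein, at 0.354. Kera stood at 232 against 1006 CPM (0.231, 0.166 to 0.314) in cycling cells and at a ratio of 0.549 in non-cycling cells. Tnmd was close to equal in cycling cells (0.881, 0.817 to 0.949), and Scx was higher (1.72, 1.65 to 1.78), where the limit on Scx chose the cells.

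The matrix genes Postn, Mfap5 and Col3a1 were higher in mutant cycling Scx-high cells. Postn, or periostin, stood at 3162 against 187 CPM (16.9-fold, 13.1 to 22.2), Mfap5, a microfibril protein, at 1591 against 48.9 CPM (32.6-fold, from 322 and 17 UMIs), and Col3a1 at 5044 against 730 CPM (6.91-fold, 6.01 to 7.96). In non-cycling cells these ratios were 26.2, 35.2 and 8.94. Spp1, or osteopontin, gave 251 UMIs in 14 of 29 mutant cells and 3 UMIs in 1 of 59 wild-type cells, a ratio of 144 (48.6 to 702), against 120 in non-cycling cells. Over the fibroblast matrix list 8 of 19 genes were at least 2-fold higher and 1 lower in cycling cells (median 0.81), against 11 and 1 of 19 in non-cycling cells (median 2.02). The difference between the cycling and the non-cycling ratios was not tested.

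**Figure D5:**
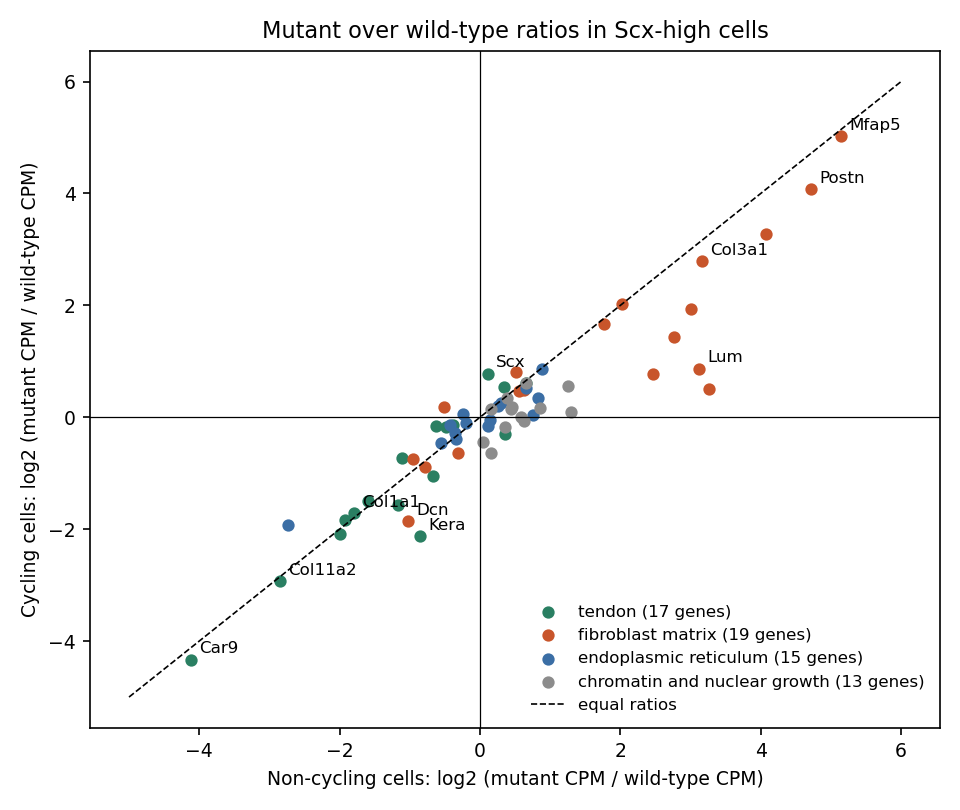
Log2 ratio of mutant to wild-type CPM in non-cycling (horizontal axis) and cycling (vertical axis) Scx-high cells, 1 point per gene that passed the filter in both comparisons, coloured by list, with the dashed line marking equal ratios. Tendon genes reach from Car9 and Col11a2 at the lower left to Scx above 0, and fibroblast matrix genes reach from Dcn at the lower left to Mfap5 and Postn at the upper right. Of the fibroblast matrix genes 15 of 19 were above 0 in cycling and 14 of 19 in non-cycling cells, beside 1525 of 2315 and 957 of 1367 of all genes.

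Genes lowest in the mutant cycling Scx-high cells included Cpz, a carboxypeptidase that binds Wnt, with 1 UMI against 194 (0.00886, 0.000223 to 0.0499), Crabp1, a retinoic acid-binding protein, with 1 against 176 (0.00976, 0.000246 to 0.0551), and Col2a1, the collagen of cartilage, at 64.2 against 670 CPM (0.0959, 0.0503 to 0.167). Ccnd2 stood at 39.5 against 224 CPM (0.176, 0.0735 to 0.365) and Gas1 at 138 against 451 CPM (0.306, 0.197 to 0.460), beside ratios of 0.531 and 0.678 in non-cycling cells. Ppia, a cyclophilin with many near-identical copies, stood at 24.7 against 299 CPM in Scx-high and 37.7 against 485 CPM in other cycling cells. How reads shared between copies were counted was not tested.

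Cycling other cells of the libraries differed in fewer listed genes. Lox, the enzyme that crosslinks collagen, stood at 405 against 121 CPM (3.34-fold, 2.34 to 4.90), Postn at 2260 against 911 CPM (2.48-fold, 2.17 to 2.84) and Eln at 6613 against 3186 CPM (2.08-fold, 1.93 to 2.23). The smooth muscle genes Acta2 and Tagln were lower, at 1549 against 5411 CPM (0.286, 0.262 to 0.313) and 669 against 2333 CPM (0.287, from 302 and 712 UMIs), and cells with pericyte markers made up 14.0% of the mutant against 30.4% of the wild-type cycling other cells. Pericyte or smooth muscle markers summed to 2220 against 6882 CPM, Schwann or neural markers to 346 against 36.1 CPM and dendritic cell markers to 472 against 3.28 CPM. Their part in these ratios was not tested. The tendon list had a median of 0.16 in these cells, with none of 12 genes at least 2-fold higher and 1 lower.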

How the data were processed

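Single-cell 3′ libraries of P7 limb tendon were made on the 10x Genomics Chromium system. The authors deposited whole-number UMI counts for 27998 genes, aligned to mm10 and without normalization. Their methods name Cell Ranger 2.0 and the submitters' processing notes Cell Ranger 1.2.0. All deposited barcodes were read, and depth was 9451606 and 8250248 UMIs for 2364 and 2592 cells.

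Within each set of cells the UMIs of a gene were added up and scaled to CPM. Ratios carry exact conditional and shares exact Clopper-Pearson 95% intervals, which cover counting error only. A ratio against 0 UMIs used a floor of 3 UMIs over the group. Genes needed 0.5 UMI a cell on average in either set, and a fold of 2 was counted. With 1 library per condition no test was run. Cells were thinned at random to 1500 or 3000 UMIs, and at 1500 UMIs 199 wild-type and 328 mutant cells were too shallow, 1 and 11 of them cycling. Sets needed at least 10 cells.

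The rule, the gene lists and the marker lists were chosen with earlier results of these data known. Genes named are the list members and the 10 highest and 10 lowest ratios of a comparison. Examples among them were chosen after their values were seen. Ratios and intervals were tested on simulated independent counts without variation between cells. How well the intervals hold for UMIs clumped in single cells was not tested. Promoters came from RefSeq on GRCm38.p6. Computations used Python 3.11.15, NumPy 2.4.6, pandas 2.3.3, SciPy 1.17.1, Scanpy 1.11.5 and Matplotlib 3.10.9. Alternatives were other UMI thresholds and depths, another scaling, other filters and removal of called doublets. Settings added after seeing the data were the threshold of 2 UMIs at 1500, thinning to 3000 UMIs, shares in cells of 3000 to 10000 UMIs, and leaving out cells with markers of other types.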

Additional observations from a re-analysis of the deposited data

Results flagged for a closer look

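In Scx-high cells 3 genes stood at least 2-fold apart between cycling and non-cycling cells in opposite directions in the libraries, and the difference between the libraries was not tested. The ratio of Lum, a small proteoglycan, was 2.05 in wild-type and 0.431 in mutant cells. The ratio of Ptn, a secreted growth factor, was 2.08 and 0.341. The ratio of Tagln, an actin-binding protein of smooth muscle, was 7.55 and 0.371. Of the 152 wild-type cycling Tagln UMIs, found in 7 of 59 cells, 91.4% were in 1 cell. Without cells that held at least 3 markers of another cell type the ratios in the wild-type library were 2.25 for Lum, 2.19 for Ptn and 0.644 for Tagln, and in the mutant library 0.434, 0.338 and 0.362. Fibroblast or peritenon markers, Lum among them, were not counted for this.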

How the results depend on the processing

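No paired analysis was possible because each condition had 1 library and no test was run. For the same reason no replicate could be left out. Of the main shares, G2/M to S ratios and counts of genes, 149 values under alternatives stayed within the spread allowed and 49 moved. With a threshold of 2 UMIs the cycling share was 7.87% of all and 7.04% of Scx-high wild-type cells, and 7.53% of all and 6.70% of other mutant cells. With 6 UMIs it was 4.57% of all wild-type cells, and 4.18% of all and 3.45% of other mutant cells. Thinned to 1500 UMIs it was 2.73%, 1.85%, 2.17% and 3.96% of all, Scx-high, immune and other wild-type cells, and 2.51%, 3.70% and 2.31% of all, Scx-high and other mutant cells. Thinned to 3000 UMIs it was 18.8% of immune wild-type cells, and 7.26%, 8.70% and 6.44% of all, immune and other mutant cells. In cells of 3000 to 10000 UMIs it was 7.51% and 21.9% of all and immune wild-type cells, and 8.62%, 8.70% and 7.36% of all, immune and other mutant cells. With 6 UMIs the ratio of G2/M to S phase UMIs was 4.23 in Scx-high and 4.03 in other wild-type cells. As a mean over equally scaled cells it was 3.98 in other wild-type, 4.52 in Scx-high mutant and 3.44 in other mutant cells.

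Genes at least 2-fold lower in cycling cells numbered 45 in wild-type Scx-high cells with the 20 most abundant genes left out of the total. Centred on the median gene they numbered 50, 96, 87 and 87 in wild-type Scx-high, other and immune and mutant Scx-high cells, and 205 genes were lower in mutant than in wild-type cycling Scx-high cells. In wild-type immune cells of 3000 to 10000 UMIs 133 were lower. With a filter of 0.1 UMI, which tests more genes, 1172 were higher and 171 lower in wild-type Scx-high cells, 1034 and 416 in wild-type other, 1369 and 460 in wild-type immune, 1186 and 499 in mutant Scx-high and 800 and 251 in mutant other cells. Between the libraries 1440 and 846 were then higher and lower in mutant cycling Scx-high and 609 and 721 in cycling other cells. The number of genes tested at this filter is not given here, so these counts are not shares and give no size of change. Against non-cycling cells, more genes pass through the deeper cycling set, so the numbers higher and lower cannot be weighed against each other. The log2 ratio of Acta2 in wild-type Scx-high cells turned to -0.06 in cells of 3000 to 10000 UMIs and to -0.69 without cells that held markers of another type, where its UMIs were mostly in 1 cell. Other causes were not tested. Depth limits the immune shares, where the wild-type one fell from 9.60% to 2.17% at 1500 UMIs, below the mutant 3.70%.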
